A study of Mus musculus with 2 samples.

Results

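The BCL2 family genes that decide between survival and mitochondrial cell death were described in regulatory T cells (Treg cells, the Foxp3-expressing CD4 T cells that restrain immune responses) of the mouse. The 10 members were taken by their GENCODE M21 symbol, out of 55536 annotated genes, and all 10 have a row in the gene table of each library. They comprise 5 pro-survival genes (Bcl2, Bcl2l1, Mcl1, Bcl2a1b and Bcl2a1d), 3 pro-death BH3-only genes (Bcl2l11, Bbc3 and Pmaip1) and 2 effector genes (Bax and Bak1). The RNA was polyA-selected and came from primary Treg cells of a male animal aged 9 weeks, with no strain, genotype, treatment or sorting scheme given in the sources used here. There is 1 biosample, sequenced as 2 libraries that the labels call technical replicates 1 and 2. There is thus no second condition to set these levels against, and the SD is that between libraries of the same biosample, with other animals not covered. Whether the libraries came from the same portion of cells is not given. In such a bulk sample, fewer cells of a type and less RNA per cell cannot be told apart.

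The family works by binding between its own members. Pro-survival proteins hold the effectors BAX and BAK in check, BH3-only proteins bind and neutralise the pro-survival proteins or engage the effectors, and freed effectors open the outer mitochondrial membrane so that cytochrome c leaves and caspases are activated. In mice, Treg cells depend on MCL1 for survival, BIM (the product of Bcl2l11) opposes it, and interleukin 2 signalling is known to favour the survival side.

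Depth was 34697128 estimated counts for library 1 and 32049199 for library 2, of which the members took 68769 and 64227. Levels are given as TPM, a relative abundance corrected for transcript length and library size, so they can be compared between genes. Detection required at least 1 TPM in each library, which 48.0% of 22028 protein-coding genes reached and all 10 members reached. The median of the detected protein-coding genes was 31.1 TPM, and 6 of the 10 members had a mean above it. All 7 Treg markers were detected, from 109 TPM for Foxp3 to 738 TPM for Izumo1r, as were all 7 pan-T markers, and of the CD8 T cell markers Cd8a averaged 2.27 ± 0.813 TPM and Cd8b1 23.7 ± 0.587 TPM.

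**Figure D1:**
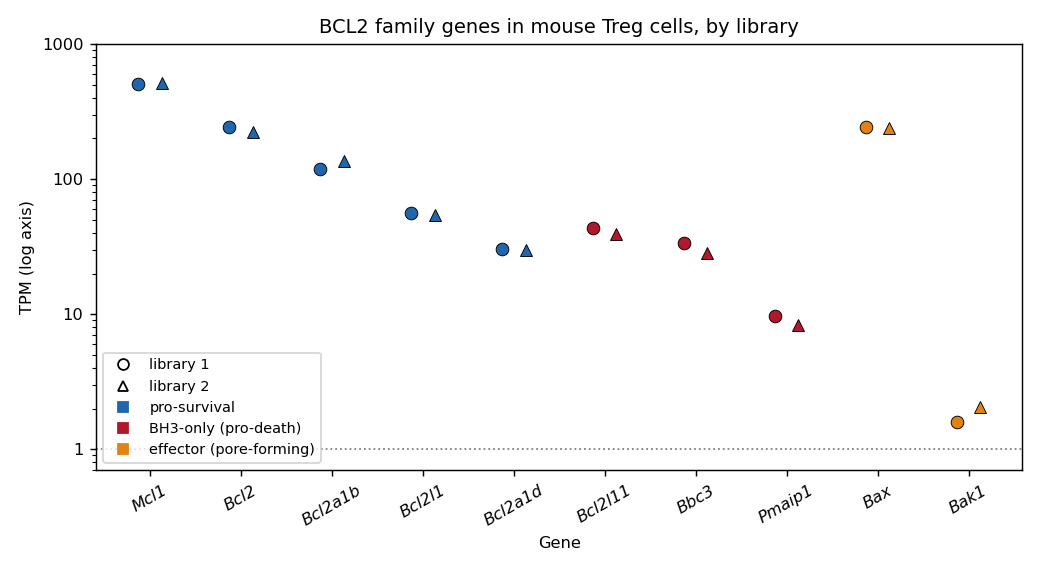
TPM of each member (log axis) in library 1 (circles) and library 2 (triangles), coloured by role, with the dotted line at the detection minimum of 1 TPM. By TPM Mcl1 stands highest in both libraries (in M4 counts per effective length Bax does), Bax and Bcl2 overlap next to each other in level, and Bak1 stands lowest.

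Among the pro-survival genes, Mcl1 had the highest TPM of all members. In the authors' M4 tables (whole-number counts per gene from genome alignments), divided by the M21 effective length, Bax stood above it. There Bax had 1234 and 1232 counts per kilobase in libraries 1 and 2 and Mcl1 741 and 765. In library 1 the M4 count was 6.97% of the estimated count for Mcl1 and 24.2% for Bax, so the M4 order carries that difference. Mcl1, whose short-lived protein binds BIM and other BH3-only proteins, stood at 503 and 517 TPM in libraries 1 and 2, a mean of 510.0 ± 10.01 TPM (SD over n = 2 technical libraries here and throughout). Of the detected protein-coding genes 97.9% lay below it. Mcl1 lies on the plus strand of chromosome 3 from 95658788 to 95663176 (GRCm38, as for all coordinates).

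The annotation holds 2 protein-coding Mcl1 transcripts, and Mcl1-201, with 331 codons, took the larger share. Its share of the gene's TPM was 77.4% and 73.7% in libraries 1 and 2, and Mcl1-202, with 285 codons, took 22.6% and 26.3%. By estimated counts Mcl1-202 took only 6.54% and 7.88%, since its annotated length is 858 bases against 3418 for Mcl1-201. It lacks a run of 138 coding bases (95658909 to 95659046) inside the first exon of Mcl1-201. Only 43 of its 809 different 50-base words occur in no other Mcl1 transcript. The authors' effective lengths equal the annotated length less 49 bases, so a 50-base word stands here for a read position. These coding stretches, read 5′ to 3′ from the M21 transcript sequences (chr3:95658885-95659070, plus strand), are shown because the reads over them tell the transcripts apart. Capitals mark the bases absent from Mcl1-202 and, in Mcl1-202, the pair of bases on either side of the junction.
Mcl1-201: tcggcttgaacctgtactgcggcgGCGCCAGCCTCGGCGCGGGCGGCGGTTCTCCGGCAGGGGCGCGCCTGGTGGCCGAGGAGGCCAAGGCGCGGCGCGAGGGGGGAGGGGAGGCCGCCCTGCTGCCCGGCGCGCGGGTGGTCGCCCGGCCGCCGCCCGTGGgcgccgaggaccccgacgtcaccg
Mcl1-202: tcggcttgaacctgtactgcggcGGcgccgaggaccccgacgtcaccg

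Bcl2, the founding pro-survival member, stood at 242 and 222 TPM in libraries 1 and 2, a mean of 232 ± 14.3 TPM. It exceeded 93.9% of detected protein-coding genes. The gene runs over chromosome 1 from 106538178 to 106714274 on the minus strand. The antisense gene D630008O14Rik lies within that span and shares 462 of the 9103 different 50-base words of Bcl2 on the opposite strand. D630008O14Rik had a level of 7.75 and 8.27 TPM in libraries 1 and 2. The strandedness of the libraries is not given, so reads in the overlap cannot be assigned to a strand with certainty.

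The leading Bcl2 transcript depended on the measure. By TPM Bcl2-202 led with 53.9 ± 0.0133% of the gene, against 46.1 ± 0.0133% for Bcl2-201. By estimated counts Bcl2-201 led with 68.6 ± 0.0114%, and Bcl2-202 took 31.4 ± 0.0114%. Bcl2-201 has 2 exons, 7191 bases and 236 codons. Bcl2-202 is a single exon of 2841 bases with 199 codons, and it runs on from the shared first coding exon into sequence that is intron for Bcl2-201. The transcripts share 576 coding bases, and 1965 of the 2792 different 50-base words of Bcl2-202 are not in Bcl2-201. The ends of the coding sequences, on the minus strand within chr1:106543267-106712334 for Bcl2-201 (which spans the intron) and at chr1:106712284-106712334 for Bcl2-202, are shown because they part after 192 codons, with capitals for the coding bases that follow the shared stretch.
Bcl2-201: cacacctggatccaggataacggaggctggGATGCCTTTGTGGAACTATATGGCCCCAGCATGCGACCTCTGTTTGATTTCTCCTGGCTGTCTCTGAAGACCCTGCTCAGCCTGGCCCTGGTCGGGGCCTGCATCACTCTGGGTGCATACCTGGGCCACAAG
Bcl2-202: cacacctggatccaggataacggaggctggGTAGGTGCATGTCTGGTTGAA

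Bcl2l1, which encodes the pro-survival protein BCL-xL, was lower than Mcl1 and Bcl2, at 56.2 and 54.2 TPM in libraries 1 and 2, a mean of 55.2 ± 1.42 TPM (chromosome 2, 152780668 to 152831728, minus strand). Of its 9 annotated transcripts Bcl2l1-201 took 75.4 ± 0.263% of TPM and Bcl2l1-205 took 15.9 ± 0.50%. Bcl2l1-201 has 233 codons, and Bcl2l1-205, with 209 codons, keeps the first coding exon but not the last. Bcl2l1-202, which has the same coding length as Bcl2l1-201 and another first exon, was estimated at 0.15 TPM in library 1 and 0 in library 2. It holds no 50-base word of its own, and the authors' 95% model interval reached 4.94 and 2.35 TPM in libraries 1 and 2. For the gene as a whole, all 4722 different 50-base words of Bcl2l1 are found in no other gene.

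The Bcl2a1 genes encode A1, a pro-survival protein that is induced in activated lymphocytes and is also made in myeloid and mast cells. They exist in the mouse as near-identical copies. Bcl2a1b (chromosome 9, 89199209 to 89207827, plus strand) stood at 119 and 136 TPM in libraries 1 and 2, a mean of 127 ± 11.4 TPM. Bcl2a1d (chromosome 9, 88723285 to 88731914, minus strand) stood at 30.5 and 29.9 TPM in libraries 1 and 2, a mean of 30.2 ± 0.438 TPM. Outside the members, Bcl2a1a was estimated at 0.20 and 0.26 TPM in libraries 1 and 2, and Bcl2a1c at 1.74 and 2.65 TPM. The 4 copies summed to 152 and 168 TPM in libraries 1 and 2, of which Bcl2a1b took 78.6% and 80.5%.

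The division among the copies rests on few bases. The coding sequences of Bcl2a1b, Bcl2a1d and Bcl2a1a each hold 516 bases, or 172 codons. Bcl2a1b differed from Bcl2a1d at 6 positions (98.8% identical, with an identical run of 217 bases) and from Bcl2a1a at 11 positions, and Bcl2a1d differed from Bcl2a1a at 7 positions. The first 90 coding bases hold 6 of the 12 positions that differ among the copies and are shown with those positions in capitals. They lie at chr9:89199360-89199449 (plus strand) for Bcl2a1b, chr9:88731630-88731719 (minus strand) for Bcl2a1d and chr9:88957051-88957140 (plus strand) for Bcl2a1a.
Bcl2a1b: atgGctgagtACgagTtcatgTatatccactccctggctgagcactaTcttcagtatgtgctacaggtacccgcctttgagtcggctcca
Bcl2a1d: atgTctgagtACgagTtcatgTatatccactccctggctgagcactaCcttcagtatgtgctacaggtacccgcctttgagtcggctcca
Bcl2a1a: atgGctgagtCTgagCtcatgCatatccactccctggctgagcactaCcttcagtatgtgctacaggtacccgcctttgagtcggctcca

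Over whole transcripts, 160 of the 768 different 50-base words of Bcl2a1b (20.8%) and 167 of the 814 of Bcl2a1d (20.5%) occur in no other annotated gene. Bcl2a1b also shares 353 of its words with Gm29094, a protein-coding gene model that starts in its first exon and was estimated at 32.5 and 29.0 TPM in libraries 1 and 2. With Gm29094 the sum over the copies was 184 and 197 TPM in libraries 1 and 2. By M4 counts, however, Gm29094 stood at 0 in both libraries, against 422 and 366 estimated counts in libraries 1 and 2. The M4 tables gave Bcl2a1b 87 and 94 counts and Bcl2a1d 65 and 45 counts in libraries 1 and 2, so the ratio of Bcl2a1b to Bcl2a1d was 1.71 ± 0.531 there, against 4.23 ± 0.439 by TPM. Bcl2a1b was the highest copy by both measures.

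**Figure D2:**
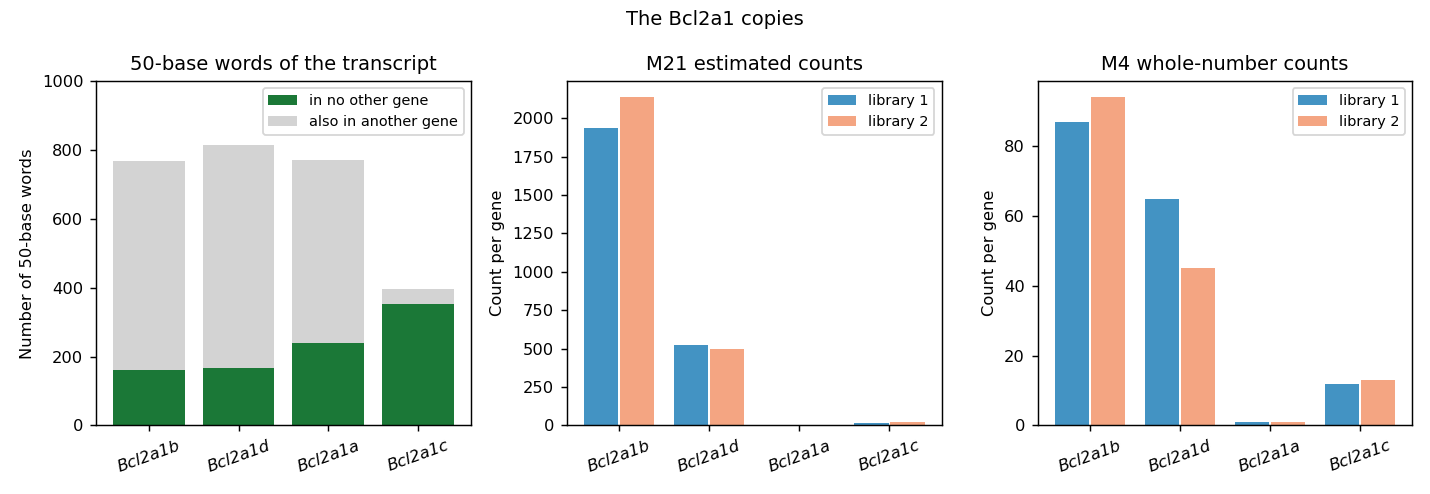
Number of different 50-base words of each Bcl2a1 copy, split by whether another annotated gene holds them, and counts per gene in libraries 1 and 2 from the M21 estimated counts and the M4 whole-number counts. Most words of Bcl2a1b and Bcl2a1d are shared, and the gap between these copies is wider in the estimated counts.

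Since A1 is also made by other cells, their markers were read beside it. Of 7 neutrophil markers 0 reached 1 TPM in library 1 and 3 did in library 2, with a summed level of 0.51 and 8.76 TPM. These were S100a8 at 0 and 3.57 TPM in libraries 1 and 2, S100a9 at 0 and 2.11 TPM and Ltf at 0.22 and 1.66 TPM, while Elane was at 0 in both. By TPM library 2 had the higher Bcl2a1b level, by 1.13-fold, and library 1 the higher Bcl2a1d level, by 1.02-fold. The direction for Bcl2a1d turned in estimated counts scaled by their totals. The sums of the marker lists that follow were all higher in library 1. Of 4 mast cell and basophil markers 0 were detected, with sums of 0.83 and 0.61 TPM and Mcpt8 at 0 in both libraries. Of 4 dendritic cell markers 0 were detected, with sums of 1.33 and 0.96 TPM. Of 6 macrophage and monocyte markers 3 were detected, led by Lyz2 at 13.1 ± 1.82 TPM, with sums of 24.4 and 17.8 TPM. Of 5 B cell markers 4 were detected, with sums of 45.8 and 40.5 TPM and Cd79b highest at 30.8 ± 3.05 TPM. The part of such cells in the Bcl2a1 reads was not tested.

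By TPM the BH3-only members stood below Mcl1, Bcl2 and Bcl2a1b in both libraries. In M4 counts per effective length they stood below Mcl1 and Bcl2, but Bbc3, at 216 and 187 counts per kilobase in libraries 1 and 2, stood above Bcl2a1b, at 113 and 122. Bcl2l11, which encodes BIM, a BH3-only protein known to limit T cell survival, was the highest of the 3 by TPM, at 43.6 and 39.4 TPM in libraries 1 and 2, a mean of 41.5 ± 2.93 TPM (chromosome 2, 128126038 to 128162547, plus strand). Bbc3, which encodes PUMA, a target of p53, stood at 33.5 and 28.6 TPM in libraries 1 and 2, a mean of 31.0 ± 3.47 TPM (chromosome 7, 16308393 to 16318205, plus strand). Pmaip1, which encodes NOXA, a BH3-only protein that binds MCL1, stood at 9.65 and 8.29 TPM in libraries 1 and 2, a mean of 8.97 ± 0.962 TPM (chromosome 18, 66458533 to 66465565, plus strand). In M4 counts per effective length the order of Bcl2l11 and Bbc3 turned, with Bcl2l11 at 112 and 90.1 counts per kilobase and a ratio of Bcl2l11 to Bbc3 of 0.50 ± 0.0239. By TPM all 3 were higher in library 1, by between 1.11-fold and 1.17-fold.

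Most Bcl2l11 reads were assigned to the transcript of the longest BIM form. Bcl2l11-205, with 196 codons (the BIM-EL length), took 54.9% and 58.5% of the gene's TPM in libraries 1 and 2. By estimated counts its share was 78.4% and 79.6%. Bcl2l11-202, with 91 codons, took 13.5 ± 0.188% of TPM, and Bcl2l11-201, with the 110 codons of BIM-S, took 6.92 ± 0.763%. The model interval of Bcl2l11-201 ran from 0.535 to 3.76 TPM in library 1. Bcl2l11-203, with the 140 codons of BIM-L, was listed at 0 in both libraries, with an upper model bound of 1.24 and 0.694 TPM in libraries 1 and 2. Transcripts annotated without a coding sequence took 25.4% and 20.4% of Bcl2l11 TPM in libraries 1 and 2, of which Bcl2l11-208 took 15.2% and 14.4% and a processed transcript of 391 bases took 5.26% and 4.01%. Protein-coding Bcl2l11 transcripts summed to 32.5 and 31.4 TPM in libraries 1 and 2.

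Bcl2l11-203 differs from Bcl2l11-205 in coding sequence by the absence of 168 bases (128128757 to 128128924). It holds 0 words of its own among the Bcl2l11 transcripts, so its value of 0 rests on how the model divided shared reads. The stretch that tells the BIM-EL and BIM-L transcripts apart (chr2:128128733-128128948, plus strand) is shown with those bases in capitals, and with the pair of bases at the junction in capitals for Bcl2l11-203.
Bcl2l11-205: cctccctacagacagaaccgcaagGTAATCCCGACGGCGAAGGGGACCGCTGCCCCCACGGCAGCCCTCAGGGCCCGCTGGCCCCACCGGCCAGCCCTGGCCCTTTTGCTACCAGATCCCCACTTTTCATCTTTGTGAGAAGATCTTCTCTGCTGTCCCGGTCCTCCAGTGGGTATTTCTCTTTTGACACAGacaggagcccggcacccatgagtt
Bcl2l11-203: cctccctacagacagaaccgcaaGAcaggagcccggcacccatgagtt

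For the other BH3-only members 1 transcript took most of the gene. Bbc3-201, with 193 codons, took 87.0% and 93.5% of Bbc3 TPM in libraries 1 and 2. Bbc3-202, whose coding sequence is annotated as incomplete, took 6.14 ± 1.252%. The retained-intron transcript Bbc3-203 took 5.14% in library 1 and 0 in library 2. Pmaip1-201, with 103 codons, took 81.9% and 80.3% in libraries 1 and 2, and Pmaip1-203, which skips the middle exon and has 51 codons, took 18.1% and 19.7%. Only 49 of the 2485 different words of Pmaip1-203 are in no other Pmaip1 transcript. The model interval of Pmaip1-203 ran from 0.116 to 3.64 TPM in library 1 and from 0.126 to 3.37 TPM in library 2. The share of Pmaip1-203 is thus loosely fixed.

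The effectors stood far apart. Bax was at 242 and 238 TPM in libraries 1 and 2, a mean of 239.8 ± 2.63 TPM, above 94.1% of detected protein-coding genes (chromosome 7, 45461697 to 45466898, minus strand). Bak1 was at 1.58 and 2.07 TPM in libraries 1 and 2, a mean of 1.83 ± 0.346 TPM, above 3.45% of them (chromosome 17, 27019810 to 27029009, minus strand). Bax thus exceeded Bak1 153-fold in library 1 and 115-fold in library 2. Bak1 rested on 64.4 and 81.9 estimated counts and on 30 and 24 M4 counts, so its low level was seen in both kinds of table. In M4 counts per effective length the ratio of Bax to Bak1 was 89.0 ± 13.9.

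In the TPM column Bak1-201, which M21 types as a nonsense-mediated decay transcript, took 100% of Bak1, and the protein-coding Bak1-202 was listed at 0 for each library. In posterior mean TPM the share of Bak1-201 averaged 59.0%. By that measure a further nonsense-mediated decay transcript of Bak1 took 17.9% and 34.6% in libraries 1 and 2. Bak1-202 took 8.02% and 6.34%, and the other protein-coding transcript took 9.26% and 5.85%. The model interval of Bak1-201 ran from 0.40 to 1.61 TPM in library 1, so this division is loosely fixed. The upper model bound of Bak1-202 was 0.392 and 0.388 TPM in libraries 1 and 2. Bak1-201 carries an exon of 20 bases (27021663 to 27021682) that Bak1-202 lacks, and 66 of its 1925 different words are in no other Bak1 transcript. For Bak1-202 this holds for 317 of its 2338 different words. The gene Ggnbp1 on the opposite strand shares 426 of the 2495 different words of Bak1. The Ggnbp1 row with more counts was estimated at 0.76 and 1.12 TPM in libraries 1 and 2, and the origin of reads in the overlap cannot be told apart without strand. The stretch around the 20-base exon (within chr17:27021324-27022462, minus strand, introns left out) is shown with that exon in capitals, and with the pair of bases at the junction in capitals for Bak1-202.
Bak1-201: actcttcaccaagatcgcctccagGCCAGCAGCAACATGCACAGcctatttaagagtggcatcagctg
Bak1-202: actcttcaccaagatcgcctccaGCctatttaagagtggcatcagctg

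For Bax the full-length Bax-201, with 192 codons, took 46.9% and 48.5% of TPM in libraries 1 and 2. Bax-205, with 171 codons, differs from Bax-201 in where its last exon begins, and took 23.3% and 22.3%. Bax-203, whose coding sequence is annotated as incomplete at its end, has a first exon that runs through the first intron of Bax-201, and took 28.7% and 27.4%. The model interval of Bax-205 ran from 38.5 to 70.2 TPM in library 1 and from 33.0 to 63.9 TPM in library 2, so its share is loosely fixed. Bax shares 145 of its 1704 different words with Gm45808, which was at 0.29 TPM in library 1 and 0 in library 2.

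**Figure D3:**
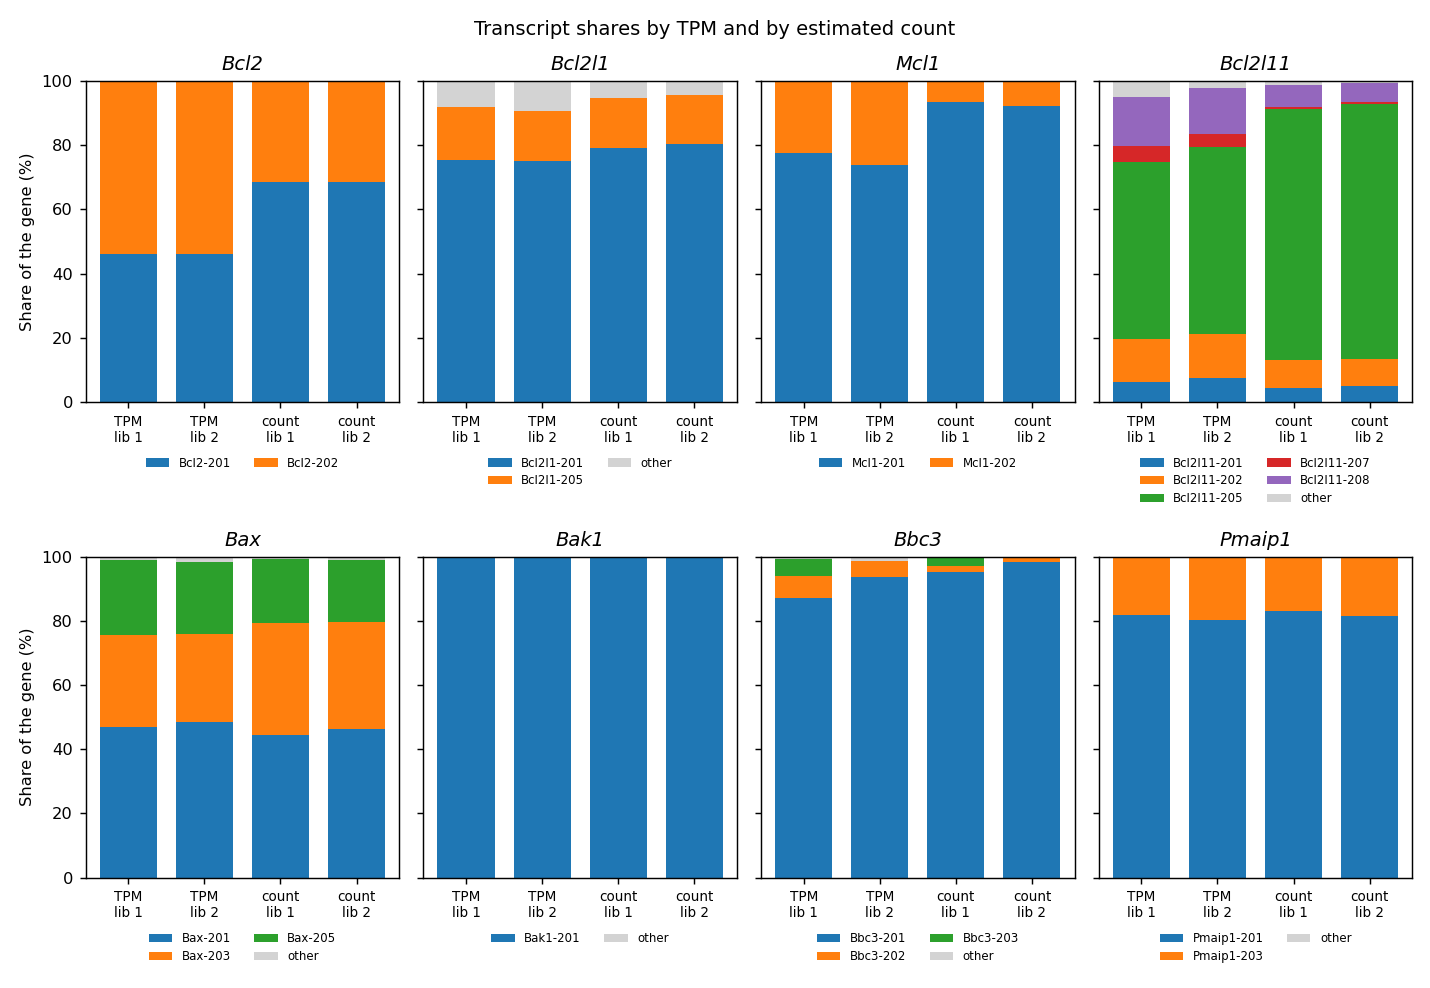
Share of each gene's TPM and of its estimated counts taken by its transcripts, in libraries 1 and 2, for the 8 members with more than 1 annotated transcript, where colours are transcripts with at least 5% of TPM in either library and grey is the rest. Bcl2-202 holds over 50% of Bcl2 by TPM and under 50% by counts, while the leading transcript of the other 7 genes is the same by both measures.

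Ordered by mean TPM, the members ran Mcl1, Bax, Bcl2, Bcl2a1b, Bcl2l1, Bcl2l11, Bbc3, Bcl2a1d, Pmaip1 and Bak1. Of the 43 pairs of members ordered alike in both libraries by TPM, 4 turned in both libraries in M4 counts per effective length, namely Mcl1 and Bax, Bcl2a1b and Bcl2l1, Bcl2a1b and Bbc3, and Bcl2l11 and Bbc3. The pairs with Bcl2a1b carry the limit that most of its words are shared with other genes. Neighbours in the TPM order did not overlap between libraries except for 2 pairs. Bax and Bcl2 overlapped, with a ratio of Bcl2 to Bax of 1.00 in library 1 and 0.933 in library 2. Bbc3 and Bcl2a1d also overlapped. The largest step was between Pmaip1 and Bak1, a 4.92-fold ratio of means, and the next was 3.36-fold between Bcl2a1d and Pmaip1.

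By role, the pro-survival members summed to 951 and 959 TPM in libraries 1 and 2, the BH3-only members to 86.7 and 76.3 TPM, and the effectors to 243 and 239.98 TPM. Mcl1 made up 53.4 ± 0.754% of the pro-survival sum and Bcl2 24.3 ± 1.63%. The ratio of the pro-survival sum to the BH3-only sum was 10.97 in library 1 and 12.6 in library 2. Adding the other BH3-only genes Bad, Bid, Bik, Bmf and Hrk, which summed to 70.1 and 76.8 TPM, brought it to 6.07 in library 1 and 6.26 in library 2. Bnip3 and the BH3-like Bnip3l, at means of 12.1 and 371 TPM, are not in that sum, so the ratio depends on which genes are counted. Mcl1 exceeded Bcl2l11 by 12.3 ± 1.11-fold and Bcl2 exceeded it by 5.60 ± 0.0506-fold. In M4 counts per effective length the pro-survival to BH3-only ratio was 4.72 ± 0.552, Mcl1 to Bcl2l11 7.57 ± 1.31, Bcl2 to Bcl2l11 3.09 ± 0.397 and Bcl2 to Bax 0.250 ± 0.00526, so the sizes depend on the table. These are ratios of RNA over all transcripts of a gene, and protein levels were not measured. Transcripts annotated without a coding sequence took 25.4% and 20.4% of Bcl2l11 TPM in libraries 1 and 2, and 0 of Bcl2 and Mcl1 TPM.

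The libraries differed little in these genes. No member reached a 1.5-fold difference between libraries, while 8.50% of the 13275 annotated genes detected did, and nothing particular to the members is read from 0 of 10. Of the members 7 were higher in library 1. The share of all detected genes higher in library 1 was not computed, so nothing particular to the members is read from this count. By TPM the widest gap was that of Bak1, at a log2 ratio of library 1 to library 2 of -0.39, and the narrowest that of Bax, at 0.02. These directions depended on the scaling: in M4 counts scaled by their totals they turned for Bak1 (0.22), Bcl2, Bcl2l1 and Bax, and in estimated counts scaled by their totals for Bcl2a1d and Bax. In those M4 counts the widest gap was that of Bcl2a1d, at 0.43. With 1 library a side no test was made.

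The other genes of the pathway came from 6 lists with 57 genes, of which 47 were detected, and their median was 28.2 TPM. Of the other 16 BCL2 family genes 10 were detected. Bnip3l, a BH3-like gene of mitochondrial clearance also called Nix, was highest at 371 ± 3.10 TPM, and Bmf, a BH3-only gene, was the lowest detected at 1.245 ± 0.205 TPM. Bid, which links caspase 8 to mitochondria, stood at 43.1 ± 2.89 TPM, and Bad at 28.2 ± 2.40 TPM. Not detected were Bcl2l2, Bcl2a1a, Bok and Bik, at means between 0.13 and 0.955 TPM, and Bcl2l10 and Hrk, which were listed at 0 in both libraries.

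All 14 apoptosome, caspase and mitochondrial release genes were detected, from Casp9, the initiator caspase of the apoptosome, at 13.7 ± 2.52 TPM to the outer membrane channel gene Vdac2 at 148 ± 0.658 TPM. All 5 genes of the inhibitor of apoptosis family were detected, with Birc3 highest at 110 ± 10.1 TPM and Xiap lowest at 9.98 ± 1.05 TPM. Of 9 death receptor genes 8 were detected, with Casp8 highest at 228 ± 9.21 TPM and its adaptor gene Fadd lowest at 4.54 ± 0.375 TPM. The exception was Tnfrsf10b, with 0.95 and 1.58 TPM in libraries 1 and 2. Of 5 genes that regulate turnover of MCL1 and BIM proteins 4 were detected, with the deubiquitinase gene Usp9x highest at 59.4 ± 5.18 TPM and the ubiquitin ligase gene Fbxw7 lowest at 13.4 ± 3.17 TPM, and Trim17, at 0.605 ± 0.460 TPM, was not detected. Of 8 genes listed as transcription regulators of members 6 were detected. That list also holds Mdm2 and Cdkn1a, which do not encode transcription factors. Trp53, which encodes p53, an activator of Bbc3, Pmaip1 and Bax, was highest at 198 ± 2.97 TPM. Foxo3 was the lowest detected at 4.38 ± 1.20 TPM, and Trp73, at 0.12 ± 0.156 TPM, and Cdkn1a, at 1.39 ± 0.721 TPM, did not reach 1 TPM in each library.

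Of the 47 detected pathway genes 3 lay past 1.5-fold between libraries, namely Bcl2a1c, Bcl2l15 and Birc5. Among the 13275 annotated genes detected the share was 8.50%, so nothing particular to the pathway is read from 3 of 47. Birc5, which encodes survivin and is expressed in dividing cells, was at 8.13 and 14.7 TPM in libraries 1 and 2.

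**Figure D4:**
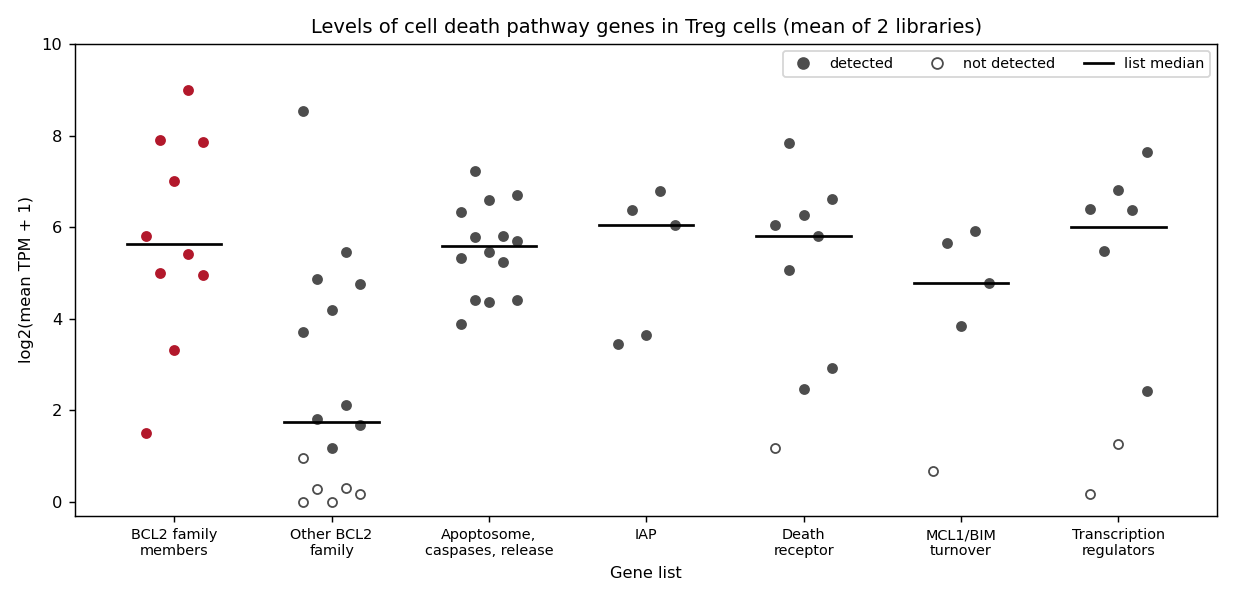
Mean TPM of the libraries as log2(TPM + 1) for the 10 members (red) and for the genes of the 6 other lists (grey), with open circles for genes not detected and a bar at each list's median. The members span the range from Bak1 to Mcl1, and most genes not detected belong to the other BCL2 family genes.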

How the data were processed

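The members, lists and alternatives were chosen with earlier results of these data known. The file lists that were deposited state that the authors' gene and transcript tables rest on transcriptome alignments to mm10 with GENCODE M21. They hold estimated counts (expected counts), TPM, FPKM and posterior mean TPM with model intervals, per the file headers. Those intervals follow the posterior mean TPM, which lies below the TPM column for most members, so some TPM values fall above their interval. The deposited M4 tables hold whole-number counts per gene from genome alignments, totalling 9576557 and 8937887 over 22457 genes. Aligner, quantifier, counter, read length and strandedness: not given in the sources used here. Effective length equalled length less 49 bases, within 0.01 bases, in 100% of transcripts.

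Of 81881 rows 55536 matched an M21 gene. The other rows took 0.197% and 0.212% of estimated counts and were left out of totals. Ddit3 and Ggnbp1 each have 2 rows, and the row with more counts was used. Means, SDs, shares and ratios were computed with pandas 2.3.3 under Python 3.11.15, and no test was run, since 2 technical libraries form no groups to compare. Named were all members, their transcripts at 5% of TPM or more in either library, and of each of the 6 pathway lists the genes not detected, the highest and the lowest detected. Further genes and transcripts were named after their values were seen (Bad, Bid, Bcl2a1c, Bcl2l15, Birc5, Gm29094, D630008O14Rik, Gm45808, Ggnbp1, Bcl2l1-202, Bcl2l11-203 and Bak1-202). The rule did not cover the marker lists, from which Foxp3, Izumo1r, Cd8a, Cd8b1, Elane, S100a8, S100a9, Ltf, Mcpt8, Lyz2 and Cd79b were likewise named after their values were seen. Alternatives covered the estimator, detection minimum, unit, count table, fold limit, pseudocount and single libraries.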

Additional observations from a re-analysis of the deposited data

How the results depend on the processing

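Since all 10 members reached 1 TPM in each library, their detection in each single library and at 0.5 TPM follows by definition. By posterior mean TPM all 10 were detected, and 9 at 5 TPM or by FPKM, where Bak1 was missed. Of the other pathway genes between 41 (at 5 TPM) and 50 (at 0.5 TPM) were detected. Under the lower fold limit tried, 1 member, Bak1 with 1.31-fold, lay past it between libraries. Ratios between members depended on the table and on the length correction, and the cause of the M4 differences was not tested. With M4 counts per effective length Bcl2/Bcl2l11 was 3.09, Bcl2/Bax 0.250, Mcl1/Bcl2l11 7.57, Bcl2l1/Bax 0.217, Bax/Bak1 89.0 and the pro-survival to BH3-only ratio 4.72. With estimated counts and no length correction the first 5 were 7.501, 5.38, 9.44, 0.596 and 59.96. By posterior mean TPM Bcl2/Bcl2l11 was 5.48. The order of members in M4 counts per effective length was an alternative chosen after seeing the data: it gave Mcl1/Bax 0.611, Bcl2a1b/Bcl2l1 0.441, Bcl2a1b/Bbc3 0.590 and Bcl2l11/Bbc3 0.50, against TPM ratios of 2.13, 2.31, 4.16 and 1.34. M4 counts totalled 27.6% of estimated counts in library 1, but the share differed between members, from 4.49% for Bcl2a1b, 6.12% for Bcl2 and 6.97% for Mcl1 to 24.2% for Bax, 30.5% for Bbc3 and 46.6% for Bak1, so M4 ratios between members carry these differences. Outside the members, the 7 pan-T markers lay between 1.48% (Trbc2) and 13.4% (Cd4) in library 1. Of 20 transcript shares 17 moved by more than 1 SD between TPM and estimated counts, while all 10 library ratios stayed within 1.5-fold under each scaling tried. No paired analysis was possible because the libraries form 1 group and no test was run.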
